A study of Mus musculus with 9 samples.

Results

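The 10 genes described here encode the enzymes that turn membrane arachidonic acid into prostanoids and leukotrienes: *Pla2g4a*, *Ptgs1*, *Ptgs2*, *Ptges*, *Hpgds*, *Tbxas1*, *Alox5*, *Alox5ap*, *Ltc4s* and *Lta4h*. They were chosen by name for their function and not by their values, though with earlier results of these data known. All 10 were among the 16260 genes tested of the 55471 in the deposited counts. RNA was sequenced from dendritic cells (DCs) grown from the bone marrow of wild-type C57BL/6 mice, which the study's methods describe as females of 8 to 20 weeks. All cultures were grown with the cytokine GM-CSF at 20 ng/mL and were then left unstimulated, given lipopolysaccharide (LPS, a bacterial outer membrane component) at 100 ng/mL, or given the type I interferon IFN-β at 1000 U/mL, for 6 h. Each of the 3 groups had 3 libraries, named A, B and C. The labels do not say that the letters stand for separate animals, so p-values measure the spread between these libraries, part of which may be technical.

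Cytosolic phospholipase A2 releases arachidonic acid from membrane lipids, and the cyclooxygenases or 5-lipoxygenase then oxidise it. The cyclooxygenase product prostaglandin H2 is passed to terminal synthases that make prostaglandin E2, prostaglandin D2 or thromboxane, while the 5-lipoxygenase product leukotriene A4 is hydrolysed to leukotriene B4 or joined to glutathione as leukotriene C4. Myeloid cells are known as major producers of both families, and prostaglandin E2 is known to affect DC migration and cytokine output.

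The libraries held 33425803 to 43735199 counts on genes. Expression is given in CPM, the counts of a gene per 1000000 counts of the library size after scaling by TMM factors. A gene was called where edgeR's quasi-likelihood test gave a p-value under 0.05 after Benjamini-Hochberg adjustment over the 16260 genes. All 11 DC markers and all 7 macrophage markers examined had over 3 counts in every library, and none of the 7 T, B and NK cell markers did. LPS raised *Il12b*, a subunit of interleukin-12, from 3.41 ± 0.70 to 3613 ± 187 CPM (mean ± SD, n = 3), and *Rsad2*, an interferon-stimulated gene, stood at 47.0 ± 29.9 CPM unstimulated, 12460 ± 1684 with LPS and 3502 ± 546 with IFN-β. The cultures are bulk samples, so fewer cells of a type and less RNA per cell cannot be told apart. When the counts were scaled by library size alone instead of TMM, the median over all tested genes moved on the log2 scale by -0.58 (LPS), -0.31 (IFN-β) and 0.27 (IFN-β against LPS). This also moved the share of higher genes among all calls from 48.1% to 21.9%, from 50.3% to 22.3% and from 52.5% to 77.9%, and changes below are relative to the TMM scale.

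LPS changed 8 of the 10 genes, 3 upward and 5 downward. Across all tested genes it changed 68.2%, with 32.8% higher and 35.4% lower, so the count of changed members lies near the background. IFN-β changed 7 of the 10, 3 upward and 4 downward, against 46.9% of all genes (23.6% higher, 23.3% lower). The same 3 genes were higher with either stimulus: *Ptgs2*, *Ptges* and *Pla2g4a*, which encode the inducible cyclooxygenase, a prostaglandin E synthase and the arachidonate-releasing phospholipase. The median log2 fold change of the 10 genes was -1.27 for LPS and -0.18 for IFN-β, beside -0.04 and -0.02 over all tested genes. With the library letter as a term in the model, all 10 genes were called for LPS (73.5% of all genes) and 9 for IFN-β (56.3%). Both comparisons use the same 3 unstimulated libraries, so the responses are given side by side and were not correlated.

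**Figure D1:**
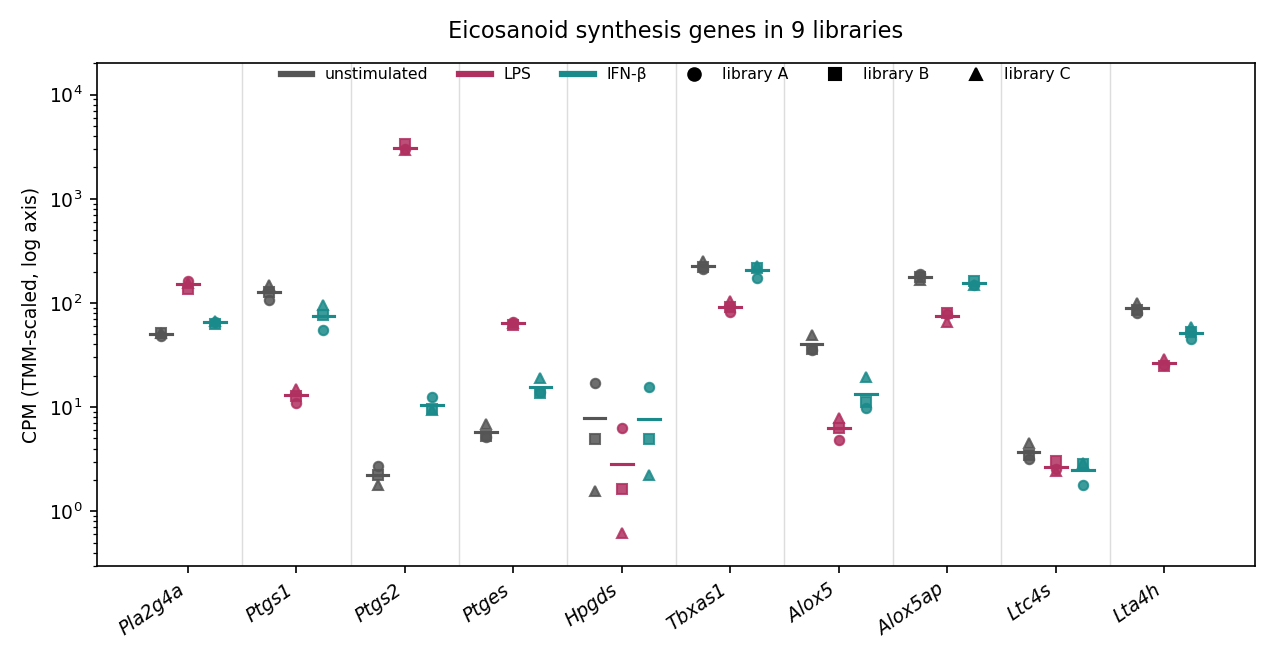
CPM of the 10 genes on a log axis in each of the 9 libraries, coloured by group and with a symbol for the library letter, with bars at the group means (n = 3). *Ptgs2* spans from 1.78 to 3326 CPM, and *Hpgds* is spread by letter within every group.

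*Pla2g4a* encodes cytosolic phospholipase A2α, which supplies the arachidonic acid for both branches, and lies on chromosome 1 at 149829618 to 149961290 (minus strand, GRCm38 for all coordinates). It measured 48.2, 51.0 and 51.2 CPM in unstimulated libraries A, B and C, 162, 135 and 157 CPM with LPS, and 66.0, 63.4 and 66.6 CPM with IFN-β. The 3 groups did not overlap, with LPS highest and unstimulated lowest. The log2 fold change was 1.59 (SE 0.08, edgeR adjusted p = 2.84e-08) for LPS and 0.38 (SE 0.07, edgeR adjusted p = 0.00182) for IFN-β. Scaling by library size alone ended the IFN-β call, with a log2 fold change of 0.07 (adjusted p = 0.419 in edgeR).

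The cyclooxygenases *Ptgs1* (COX-1, usually described as constitutive) and *Ptgs2* (COX-2, the inducible form) moved in opposite directions under both stimuli. *Ptgs2* stood at 2.74, 2.24 and 1.78 CPM in unstimulated libraries A, B and C, which rest on 108, 100 and 79 counts. With LPS it reached 2990, 3326 and 2911 CPM, and with IFN-β 12.6, 9.69 and 9.41 CPM. No library of one group reached the range of another, and the LPS libraries were separated from the rest by more than 2 orders of magnitude. The log2 fold change was 10.42 (SE 0.21, edgeR adjusted p = 5.18e-10) for LPS and 2.23 (SE 0.17, edgeR adjusted p = 3.98e-06) for IFN-β, which are 1368-fold and 4.70-fold. Under LPS, *Ptgs2* alone took between 0.234% and 0.279% of all counts of a library.

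*Ptgs1* lies on chromosome 2 at 36230426 to 36252272 (plus strand). It measured 108, 129 and 149.9 CPM in unstimulated libraries A, B and C, 11.1, 12.8 and 15.0 CPM with LPS, and 54.5, 76.7 and 94.6 CPM with IFN-β. All LPS libraries lay below all IFN-β libraries, which in turn lay below all unstimulated ones. It fell by 3.31 on the log2 scale with LPS (SE 0.21, edgeR adjusted p = 1.80e-07), the largest fall of the 10 genes, and by 0.78 with IFN-β (SE 0.19, edgeR adjusted p = 0.00610). The IFN-β call was lost when the libraries of letter B were left out (log2 fold change -0.79, adjusted p = 0.0809 in edgeR), with 2 libraries per group remaining.

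To compare the cyclooxygenases with each other, counts were divided by the length of each gene's exons. *Ptgs2* then made up 2.11%, 1.46% and 0.997% of the summed cyclooxygenase signal in unstimulated libraries A, B and C. Its share was 99.6%, 99.5% and 99.4% with LPS and 16.3%, 9.68% and 7.78% with IFN-β. With LPS nearly all of the cyclooxygenase signal was *Ptgs2* in every library, whereas *Ptgs1* stayed the larger part in all 3 IFN-β libraries. The log2 ratio of *Ptgs2* to *Ptgs1* counts, with 0.5 added to each, was -5.84 ± 0.55 unstimulated, 7.90 ± 0.26 with LPS and -2.81 ± 0.62 with IFN-β (mean ± SD, n = 3). All 3 pairs of groups were separated, each with p = 0.1 (adjusted 0.1) in a two-sided exact permutation test, the smallest value that 3 libraries against 3 can give.

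The sequences at the starts of both cyclooxygenase genes are shown because these genes gave the largest rise and the largest fall. They are RefSeq sequences of build GRCm38.p6, from 250 bases before to 30 bases after the annotated start, 5′ to 3′ on the strand of the gene, with every match to a searched motif in capitals:
Ptgs2 (chr1:150099781-150100060, plus strand): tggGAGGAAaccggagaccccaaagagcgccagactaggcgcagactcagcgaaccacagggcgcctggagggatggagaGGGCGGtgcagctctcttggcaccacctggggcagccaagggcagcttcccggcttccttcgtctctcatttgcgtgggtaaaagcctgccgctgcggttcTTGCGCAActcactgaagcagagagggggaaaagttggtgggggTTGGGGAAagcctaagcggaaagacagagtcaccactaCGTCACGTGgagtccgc
Ptgs1 (chr2:36230176-36230455, plus strand): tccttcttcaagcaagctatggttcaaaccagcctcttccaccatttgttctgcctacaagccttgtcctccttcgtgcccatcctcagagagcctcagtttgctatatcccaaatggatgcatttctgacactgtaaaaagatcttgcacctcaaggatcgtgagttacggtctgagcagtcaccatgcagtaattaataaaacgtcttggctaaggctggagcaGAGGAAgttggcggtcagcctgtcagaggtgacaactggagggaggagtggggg

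The letters of 10 motifs were searched on both strands, and the share of all 32851 RefSeq windows of this length that hold each is given. The C/EBP motif TTNNGNAA was held by 39.3% of the windows. The CRE half-site TGACG was held by 19.9%, and the E-box CACGTG by 6.79%. The GC box GGGCGG was in 34.7% and the TATA motif TATAAA in 13.1%. The PU.1 motif GAGGAA was in 26.0%, and the GAS motif TTCNNNGAA in 7.83%. The AP-1 motif (TGA and TCA around 1 free base) was in 7.46%, and the ISRE (GAAA in 2 copies around 2 free bases) in 3.28%. The NF-kB motif (GGGA, a free base, TT, a free base, CC) was in 1.15%. In the *Ptgs2* window the capitals mark, in order, PU.1 at -247, a GC box at -170, a C/EBP match at -69 that reads the same on both strands, another C/EBP match at -25, and a CRE half-site at 14 on the opposite strand that overlaps an E-box at 17. Positions count from the annotated start. The *Ptgs1* window held a PU.1 match at -24 and no other. The letters of the ISRE, GAS and NF-kB motifs were in none of the 10 windows available for 9 of the 10 genes. A match describes letters in a window and not a bound site.

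*Ptgs2* lies on chromosome 1 at 150100031 to 150108227 (GRCm38, plus strand). Its neighbour *Ptgs2os*, a transcript of the opposite strand, lies 67 bases before it, *Ptgs2os2* lies 50815 bases beyond it, and *Pla2g4a* is 138740 bases away. *Ptgs2os* had 0 counts in all 3 unstimulated libraries, 151, 223 and 221 counts with LPS and 1 count in each IFN-β library. Against a floor of 3 counts per library, it was at least 88.3-fold higher with LPS than unstimulated. *Ptgs2os2* had 26, 31 and 29 counts unstimulated, 788, 875 and 661 with LPS, and 59, 44 and 37 with IFN-β. Its log2 fold change was 5.19 (SE 0.16, edgeR adjusted p = 3.06e-09) for LPS and 0.83 (SE 0.19, edgeR adjusted p = 0.00505) for IFN-β. The exons of *Ptgs2* share no bases with another annotated gene.

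**Figure D2:**
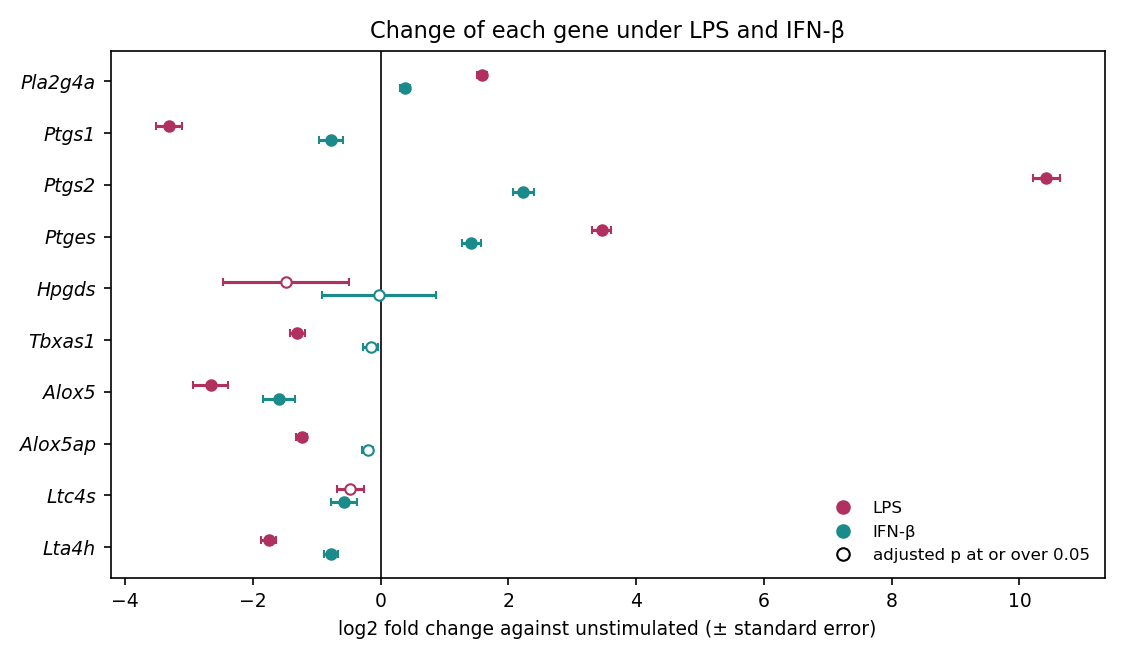
Log2 fold change against unstimulated with its standard error for the 10 genes under LPS and IFN-β, from edgeR over all 9 libraries, where open symbols have an adjusted p of 0.05 or more. *Ptgs2* lies at 10.42 for LPS and *Ptgs1* at -3.31, and the long bars of *Hpgds* reflect its spread between letters.

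Of the terminal synthases, *Ptges* encodes microsomal prostaglandin E synthase-1, which is known to act together with COX-2, and lies on chromosome 2 at 30889471 to 30929863 (minus strand). Its levels were 5.22, 5.32 and 6.83 CPM in unstimulated libraries A, B and C, 66.3, 61.0 and 64.5 CPM with LPS, and 13.9, 13.8 and 19.0 CPM with IFN-β. The groups did not overlap and stood in the same order as for *Ptgs2*. The log2 fold change was 3.46 (SE 0.15, edgeR adjusted p = 1.45e-08) for LPS and 1.42 (SE 0.14, edgeR adjusted p = 2.45e-05) for IFN-β. Its IFN-β level was 24.3% of its LPS level, whereas that of *Ptgs2* was 0.343% and that of *Il12b* 0.118%. The unstimulated levels of *Ptges*, *Ptgs2* and *Il12b* were already 9.06%, 0.0732% and 0.0942% of their LPS levels. The window at its RefSeq start, shown because *Ptges* and *Ptgs2* rose with both stimuli, has capitals at a C/EBP match (-198), a PU.1 match (-149) and 2 GC boxes (-53 and -42):
Ptges (chr2:30903268-30903547, minus strand): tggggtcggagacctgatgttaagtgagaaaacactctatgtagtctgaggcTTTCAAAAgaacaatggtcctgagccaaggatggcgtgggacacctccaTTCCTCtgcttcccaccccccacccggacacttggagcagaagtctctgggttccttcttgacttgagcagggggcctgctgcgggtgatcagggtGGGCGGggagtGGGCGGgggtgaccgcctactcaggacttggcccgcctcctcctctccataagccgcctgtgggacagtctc

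*Tbxas1*, which encodes thromboxane A synthase, lies on chromosome 6 at 38875404 to 39084585 (plus strand). It had 210.2, 221 and 253 CPM in unstimulated libraries A, B and C, 82.7, 90.8 and 104 CPM with LPS, and 175, 215 and 226 CPM with IFN-β. The LPS libraries were all below the others, and the unstimulated and IFN-β ranges overlapped. It fell by 1.30 on the log2 scale with LPS (SE 0.12, edgeR adjusted p = 2.75e-06). For IFN-β the log2 fold change was -0.15 (SE 0.12, edgeR adjusted p = 0.305), and -0.16 with an adjusted p of 0.0335 once the library letter was in the edgeR model. Scaling by library size alone, which lowers the median gene as given above, gave -0.46 (adjusted p = 0.0112 in edgeR).

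*Hpgds* encodes the haematopoietic prostaglandin D synthase, best known from mast cells, and it was the only one of the 10 genes whose ranges overlapped in all 3 comparisons. The gene lies on chromosome 6 at 65117293 to 65144908 (minus strand). It stood at 17.1, 4.96 and 1.56 CPM in unstimulated libraries A, B and C, 6.37, 1.63 and 0.614 CPM with LPS, and 15.7, 4.91 and 2.24 CPM with IFN-β. Library A was the highest and library C the lowest in every group, by 11.0-fold, 10.4-fold and 7.01-fold, while the highest and lowest libraries of a group differed by 1.05-fold to 1.99-fold for the other 9 genes. Within letters A, B and C the LPS difference on the log2(CPM + 0.5) scale was -1.36, -1.36 and -0.88. In letter C the added 0.5 is close to the LPS level of 0.614 CPM, which shrinks that difference. Without the letter in the model the log2 fold change for LPS was -1.48 (SE 0.98, edgeR adjusted p = 0.201), and with it -1.45 (SE 0.14, adjusted p = 3.32e-07 in edgeR). The value without the letter ran from -0.23 without unstimulated library A to -2.79 without LPS library A. For IFN-β the value was -0.03 (SE 0.89, edgeR adjusted p = 0.984) without and 0.03 (edgeR adjusted p = 0.836) with the letter.

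The letter itself was tested in the blocked fit, a test chosen after the data were seen. Its term was called for 2159 of 16260 genes (13.3%) and for 5 of the 10 members, and by its F statistic *Hpgds* ranked 3 among all tested genes. Relative to letter A, the terms of letters B and C for *Hpgds* were -1.78 and -3.17 on the log2 scale (edgeR adjusted p = 5.46e-08). The other 4 were higher in letter C than in letter A: *Alox5* by 0.71 (edgeR adjusted p = 5.76e-04), *Ptgs1* by 0.58 (edgeR adjusted p = 2.85e-04), *Tbxas1* by 0.32 (edgeR adjusted p = 0.00695) and *Lta4h* by 0.31 (edgeR adjusted p = 0.00693). What the letters stand for is not given in the labels.

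Markers of other cells were examined beside this split. Of 10 mast cell and basophil markers, 7 had at most 3 counts in every library, *Cma1*, *Mcpt4* and *Tpsab1* had 0 in all 9, and the list summed to 0.583 to 1.22 CPM unstimulated, 0.637 to 1.17 with LPS and 0.478 to 0.773 with IFN-β. The 7 macrophage markers summed to 2530, 2016 and 1948 CPM in unstimulated libraries A, B and C, 2421, 1996 and 1892 CPM with LPS, and 2649, 2348 and 2417 CPM with IFN-β. In this sum letter A was thus the highest in each group, by far less than for *Hpgds*. The terms of letters B and C relative to letter A were -0.51 and -0.67 for *Adgre1*, and -0.47 and -0.65 for *C1qa*. They were -0.39 and -0.56 for *C1qb*, and -0.24 and -0.53 for *Cd68*. *Marco* went the other way in letter C, with -0.58 and 0.37. The terms were not called for *Csf1r* (edgeR adjusted p = 0.312) and *Mertk* (edgeR adjusted p = 0.405). The neutrophil list, with 5 of 9 markers over 3 counts in every library and *Elane* at 3 or fewer throughout, summed to 368 to 483 CPM unstimulated, 249 to 327 with LPS and 337 to 433 with IFN-β. One gene, *Mmp8*, made up 92.2% to 97.6% of this sum. Without it, an alternative chosen after the data were seen, the list summed to 23.1, 10.1 and 11.5 CPM in unstimulated libraries A, B and C, 25.6, 13.3 and 15.9 CPM with LPS, and 19.7, 9.61 and 9.72 CPM with IFN-β, so letter A was again the highest in each group and the LPS sums were not lower. Within the list the terms of letters B and C relative to letter A were -1.65 and -2.68 on the log2 scale for *S100a9*, -1.69 and -2.99 for *Ngp*, and -2.04 and -2.74 for *Ltf*. Others did not fall in the order A, B, C, with terms of -0.75 and -0.30 for *S100a8*, -0.35 and -0.07 for *Mmp8*, and -0.71 and -0.65 for *Camp* (edgeR adjusted p = 0.362). The eosinophil list (4 of 5 markers over 3 counts in every library) summed to 23.0 to 36.4 CPM unstimulated, 14.9 to 27.9 with LPS and 21.3 to 36.7 with IFN-β. Its sum was highest in letter B of each group, as were *Prg2*, *Epx* and *Ear6*. *Siglecf* with LPS was highest in letter A (9.80 against 8.01 CPM in B). *Il5ra* with IFN-β was highest in letter C (8 counts against 3 in B). The part of these cells in the *Hpgds* values was not tested.

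**Figure D3:**
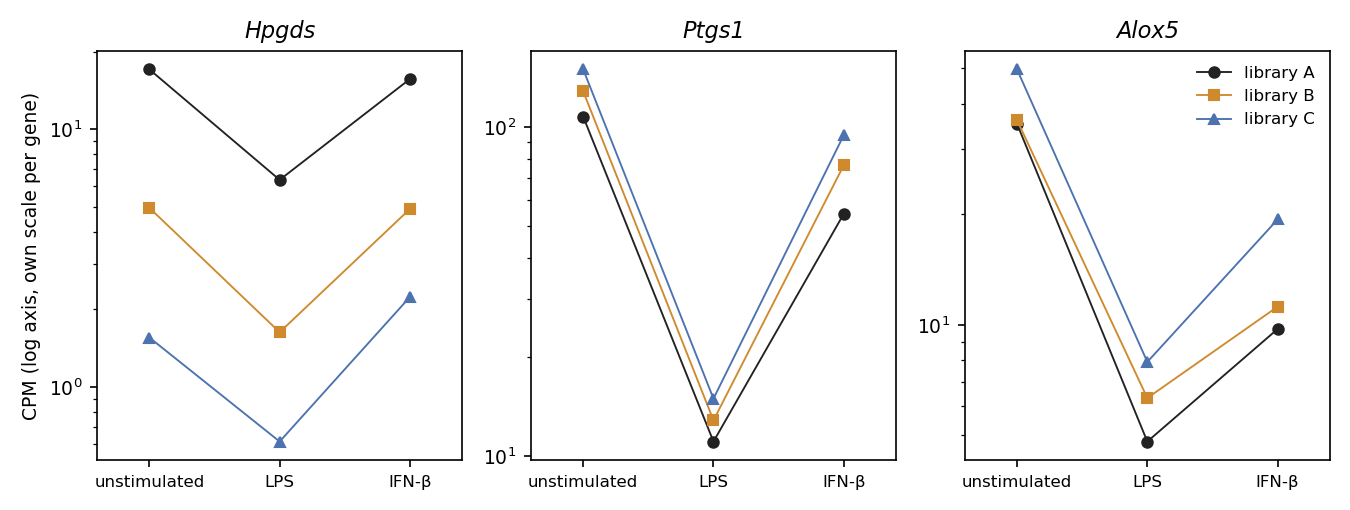
CPM on a log axis of *Hpgds*, *Ptgs1* and *Alox5* by group, with lines joining libraries of the same letter. *Hpgds* is highest in library A and lowest in library C of every group (17.1 and 1.56 CPM unstimulated), and *Ptgs1* and *Alox5* are highest in library C.

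Per exon length, *Tbxas1* made up 85.3%, 92.0% and 93.3% of the summed signal of the 3 terminal synthases in unstimulated libraries A, B and C. With LPS its share was 33.7%, 38.8% and 40.8%, and *Ptges* became the largest of these 3 parts with 62.6%, 60.2% and 58.8%. This order with LPS depends on the divisor, which joins all annotated exons of a gene (9094 bases for *Tbxas1*, 3931 for *Ptges*). Before division *Tbxas1* had more CPM than *Ptges* in every LPS library (82.7, 90.8 and 104 against 66.3, 61.0 and 64.5). With IFN-β, *Ptges* made up 14.0%, 12.6% and 16.1%, against 4.90%, 5.12% and 5.84% unstimulated. *Hpgds* did not exceed 9.82% in any library. A further prostaglandin E synthase gene that is not among the 10 enzymes, *Ptges3* (p23, also a co-chaperone of HSP90), stood at 36.3 ± 2.1 CPM per kb unstimulated, 48.2 ± 3.5 with LPS and 35.2 ± 1.2 with IFN-β, above each of the 3 in every group, and is not in these shares. It may share reads with the pseudogene *Ptges3-ps*, which was not examined, so its counts are uncertain. Other prostanoid genes outside the 10 are not in these shares either. *Akr1b3*, *Prxl2b* and *Ptges2* stood at 5.86, 4.26 and 2.26 CPM per kb unstimulated, above *Ptges* (1.47) and *Hpgds* (1.23) and below *Tbxas1* (25.1). With LPS they stood at 6.21, 1.52 and 2.24, below *Ptges* (16.3). With IFN-β they stood at 5.97, 2.42 and 1.32, beside 3.96 for *Ptges*. The shares are of RNA counts and not of enzyme or product.

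**Figure D4:**
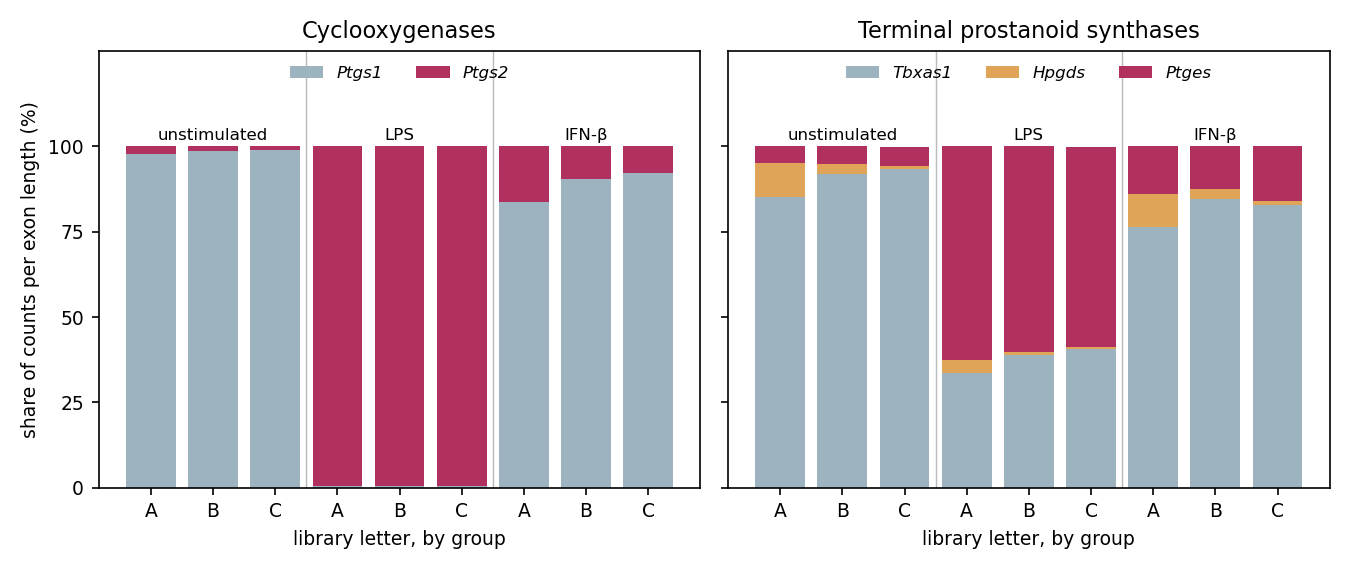
Share of counts per exon length, in percent, of the 2 cyclooxygenases (left) and the 3 terminal prostanoid synthases (right) in each of the 9 libraries. *Ptgs2* takes 99.4% to 99.6% of the cyclooxygenase bar with LPS, and *Ptges* takes 58.8% to 62.6% of the synthase bar. The length joins all annotated exons of a gene, and before division *Tbxas1* had more counts than *Ptges* in every library.

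In the leukotriene branch no gene was called higher with either stimulus, beside 32.8% (LPS) and 23.6% (IFN-β) of all tested genes. *Alox5* encodes 5-lipoxygenase, the first enzyme of the branch, and lies on chromosome 6 at 116410077 to 116461178 (minus strand). It measured 35.2, 36.1 and 49.6 CPM in unstimulated libraries A, B and C, 4.81, 6.32 and 7.92 CPM with LPS, and 9.74, 11.2 and 19.4 CPM with IFN-β. The 3 groups did not overlap, with LPS lowest. It fell by 2.66 on the log2 scale with LPS (SE 0.27, edgeR adjusted p = 6.86e-06) and by 1.59 with IFN-β (SE 0.25, edgeR adjusted p = 5.05e-04), its IFN-β fall being the largest of the 10 genes. Of the markers of neutrophils, which also make leukotrienes, *Mmp8* was lower with LPS and the sum of the rest of the list was not, as given above. Within that rest the mean of *S100a9* went from 3.05 to 2.66 CPM and that of *Ltf* from 0.683 to 0.555. The means of its other genes were higher with LPS. The part of these cells in the *Alox5* fall was not tested. The window at its start, shown as the branch's first step, has capitals at a PU.1 match (-136) and a GC box (-35):
Alox5 (chr6:116461149-116461428, minus strand): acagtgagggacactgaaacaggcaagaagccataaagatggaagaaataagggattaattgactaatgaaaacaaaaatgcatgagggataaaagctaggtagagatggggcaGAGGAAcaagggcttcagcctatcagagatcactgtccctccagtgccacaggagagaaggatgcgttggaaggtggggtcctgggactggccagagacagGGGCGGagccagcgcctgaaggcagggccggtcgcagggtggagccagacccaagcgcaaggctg

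PU.1 matches were found in 8 of the 10 windows, those of *Ptgs1*, *Ptgs2*, *Ptges*, *Hpgds*, *Tbxas1*, *Alox5*, *Ltc4s* and *Lta4h*, beside 26.0% of all windows. Genes that rose, fell and did not pass the test were among them. C/EBP matches were in 4 of the 10 windows and GC boxes in 3.

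*Alox5ap* encodes FLAP, the membrane protein that presents arachidonic acid to 5-lipoxygenase, and lies on chromosome 5 at 149264767 to 149288153 (plus strand). It stood at 189.9, 176 and 164 CPM in unstimulated libraries A, B and C, 78.4, 80.8 and 65.7 CPM with LPS, and 148, 163 and 150.1 CPM with IFN-β. The ranges were separate in each comparison, though the gap between unstimulated and IFN-β libraries was narrow. It fell by 1.24 with LPS (SE 0.09, edgeR adjusted p = 5.54e-07). For IFN-β the log2 fold change was -0.20 (SE 0.09, edgeR adjusted p = 0.0880) and missed the threshold, while with the letter in the edgeR model the adjusted p was 0.0183, and without LPS library C it was 0.0399. By library size alone the value was -0.50 (edgeR adjusted p = 4.13e-04).

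Leukotriene A4 is hydrolysed to the neutrophil attractant leukotriene B4 by the product of *Lta4h*, which lies on chromosome 10 at 93453411 to 93484875 (plus strand). This gene had 79.5, 86.2 and 101 CPM in unstimulated libraries A, B and C, 25.3, 25.0 and 28.7 CPM with LPS, and 44.8, 52.1 and 58.2 CPM with IFN-β. Its groups were separate and in the same order as those of *Alox5*. It fell by 1.75 on the log2 scale with LPS (SE 0.12, edgeR adjusted p = 2.60e-07) and by 0.78 with IFN-β (SE 0.11, edgeR adjusted p = 2.63e-04).

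*Ltc4s*, whose product makes leukotriene C4, rested on few counts, with 125, 156 and 199 unstimulated, 72, 104 and 80 with LPS, and 77, 107 and 105 with IFN-β. The gene lies on chromosome 11 at 50236461 to 50238616 (minus strand). Its levels were 3.17, 3.50 and 4.49 CPM unstimulated, 2.55, 3.03 and 2.46 CPM with LPS, and 1.80, 2.84 and 2.90 CPM with IFN-β. All unstimulated libraries lay above the others, by a small margin, and the LPS and IFN-β ranges overlapped. The log2 fold change was -0.47 (SE 0.21, edgeR adjusted p = 0.0640) for LPS and -0.57 (SE 0.21, edgeR adjusted p = 0.0418) for IFN-β, and with the letter in the model the adjusted p values in edgeR were 0.0171 and 0.00655. By library size alone the LPS value was -1.06 (edgeR adjusted p = 0.00114). The IFN-β call was lost without unstimulated library B (adjusted p = 0.0686), unstimulated library C (0.156), LPS library C (0.050) or IFN-β library A (0.137), and the LPS call was gained without unstimulated library A (0.0423) or IFN-β library A (0.0294), all in edgeR. The antisense gene *Gm26542* covers 268 bases (26.4%) of the *Ltc4s* exons, and the strand setting of the counting is not stated, so their reads cannot be told apart. Antisense genes also overlap exons of *Alox5ap* (*Gm19719*, 13.3%), *Ptgs1* (*Gm43621*, 3.81%) and *Tbxas1* (*Gm42962*, 1.58%).

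The stimuli were also compared directly. IFN-β and LPS differed for 8 of the 10 genes, 5 higher and 3 lower with IFN-β, against 49.1% of all tested genes (25.8% higher, 23.3% lower). The 3 genes lower with IFN-β were those that LPS raised, with log2 differences of -8.19 for *Ptgs2* (SE 0.19, edgeR adjusted p = 1.16e-09), -2.04 for *Ptges* and -1.21 for *Pla2g4a*. Higher with IFN-β were *Ptgs1* by 2.54, *Tbxas1* by 1.15, *Alox5* by 1.07 (SE 0.27, edgeR adjusted p = 0.00698), *Alox5ap* by 1.04 and *Lta4h* by 0.97. The *Alox5* call was lost without letter B, at an adjusted p of 0.0557 in edgeR. *Hpgds* differed by 1.45 (SE 0.98, edgeR adjusted p = 0.247) without and by 1.48 (edgeR adjusted p = 6.27e-07) with the letter in the model, and the first value ran from 0.35 without IFN-β library A to 2.75 without LPS library A. With it, 9 of the 10 genes were called (58.0% of all genes). *Ltc4s* was at -0.10 (SE 0.21, edgeR adjusted p = 0.729), and at 0.18 when scaled by library size alone.

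The groups did not overlap for 9 of the 10 genes in LPS against unstimulated libraries (72.4% of all tested genes), for 8 in IFN-β against unstimulated libraries (58.1%) and for 8 in IFN-β against LPS (56.8%). Each of these separations has p = 0.1 in a two-sided exact permutation test, the smallest possible with 3 libraries against 3.

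Levels were ordered between genes only after division by exon length, in CPM per kb. The length joins all annotated exons of a gene, so the order depends on the annotation. In unstimulated DCs *Alox5ap* was the highest at 124 ± 9.0 (SD, n = 3), followed by *Ptgs1* at 33.2 ± 5.4, *Tbxas1* at 25.1 ± 2.4, *Lta4h* at 14.6 ± 1.8, *Alox5* at 9.81 ± 1.96, *Pla2g4a* at 7.84 ± 0.26, *Ltc4s* at 3.67 ± 0.68, *Ptges* at 1.47 ± 0.23, *Hpgds* at 1.23 ± 1.27 and *Ptgs2* at 0.492 ± 0.104. The ranges of *Ptgs1* and *Tbxas1* touched, and that of *Hpgds* spanned those of *Ptges* and *Ptgs2*, while other neighbours in this order were separate. With LPS *Ptgs2* led at 672 ± 48, and *Alox5ap* (52.8 ± 5.7), *Pla2g4a* (23.6 ± 2.3) and *Ptges* (16.3 ± 0.7) came next, each separate from its neighbours. *Tbxas1* (10.2 ± 1.2), *Lta4h* (4.31 ± 0.33), *Ptgs1* (3.34 ± 0.50), *Ltc4s* (2.64 ± 0.30), *Alox5* (1.55 ± 0.38) and *Hpgds* (0.447 ± 0.478) followed, and *Ptgs1* and *Ltc4s* overlapped. With IFN-β *Alox5ap* again led at 108 ± 5.7, followed by *Tbxas1* (22.6 ± 3.0) and *Ptgs1* (19.4 ± 5.2), which overlapped. *Pla2g4a* (10.2 ± 0.3), *Lta4h* (8.47 ± 1.10), *Ptges* (3.96 ± 0.76), *Alox5* (3.27 ± 1.26), *Ltc4s* (2.48 ± 0.61), *Ptgs2* (2.30 ± 0.38) and *Hpgds* (1.18 ± 1.11) came next, and from *Ptges* on each overlapped with its neighbour. Among the 16260 tested genes the rank of *Ptgs2* per kb was 12904 unstimulated, 63 with LPS and 8760 with IFN-β.

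As a description, genes whose log2 CPM followed these patterns over the 9 libraries were looked up, with group differences shared by all points. *Dnajb6* (Pearson r = 0.999), *Pip5k1a* and *Itga5* were the most like *Ptgs2*, and *Myc* (r = 0.997), *Limk1* and *Hdac4* the most like *Ptgs1*. Such patterns were common, since 1050 and 943 genes had r over 0.95.

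Beyond the 10 enzymes, 5 lists of the wider pathway held 70 genes in the deposited counts, of which 42 were tested. LPS raised 10 and lowered 20 of them (71.4%, beside 68.2% of all tested genes), IFN-β raised 8 and lowered 16 (57.1%, beside 46.9%), and IFN-β against LPS gave 15 higher and 11 lower (61.9%, beside 49.1%). For LPS the share called thus lay near the background. With the library letter in the model the counts were 12 and 21, 8 and 20, and 17 and 11. Scaling by library size alone gave 5 and 29, 5 and 28, and 25 and 9, with more genes called lower under either stimulus in each of the 5 lists. Of 8 other phospholipases A2 tested, LPS raised 3 and lowered 3, and IFN-β raised 2 and lowered 4. Over all tested genes LPS raised 32.8% and lowered 35.4%, and IFN-β raised 23.6% and lowered 23.3%. *Pla2g4f*, a cytosolic relative of *Pla2g4a*, rose from 0.667 ± 0.349 to 4.34 ± 0.76 CPM with LPS (log2 fold change 2.71, edgeR adjusted p = 2.70e-05). It met the mean of 1 CPM over all libraries, required for naming, only through the LPS libraries. *Pla2g4c* rose with LPS (1.63) and with IFN-β (2.03), from 0.468 ± 0.164 CPM. The lysosomal *Pla2g15* fell by 2.03 with LPS and by 0.55 with IFN-β from 103 ± 18 CPM, and the calcium-independent *Pla2g6* fell by 1.04 and 1.05.

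Among 8 other prostanoid and lipoxygenase genes, LPS raised 2 and lowered 3 (beside 32.8% and 35.4% of all tested genes). There IFN-β raised 1 and lowered 3 (beside 23.6% and 23.3%). *Alox12*, which encodes platelet-type 12-lipoxygenase, had 2, 1 and 6 counts unstimulated, 115, 137 and 159 counts with LPS, and 11, 14 and 11 counts with IFN-β. Its unstimulated level lay about at the floor of 3 counts per library, and it met the mean of 1 CPM required for naming only through the LPS libraries, at 4.31 ± 0.49 CPM. From the summed counts, the ratio to the unstimulated level was 61.6 for LPS (exact 95% interval 32.1 to 136, for counting error only) and 4.4 for IFN-β (2.08 to 10.4). Both differences were called (edgeR adjusted p = 1.02e-07 and 0.00361), and the IFN-β call was lost without letter B (adjusted p = 0.0569). Of 6 megakaryocyte and platelet markers, 3 had over 3 counts in every library and *Gp1bb* had 0 in all 9, and the list summed to 94.2 to 124 CPM unstimulated, 134 to 165 with LPS and 82.9 to 114 with IFN-β. *Pf4* was the largest part of this sum, with means of 90.5, 116.5 and 78.6 CPM in these groups. *Gp6* had 3, 3 and 14 counts unstimulated, 304, 331 and 540 with LPS, and 45, 76 and 142 with IFN-β. The means of *Ppbp* were 13.9, 14.3 and 11.8 CPM, and those of *Itga2b* 0.886, 1.63 and 0.992 CPM. *Gp9* had at most 3 counts in every library. The part of these cells in the *Alox12* values was not tested. *Prxl2b*, a prostamide and prostaglandin F synthase, fell by 1.49 with LPS and by 0.81 with IFN-β. The prostacyclin synthase gene *Ptgis* fell by 1.36 with LPS (edgeR adjusted p = 0.00730), from 1.64 ± 0.40 CPM, a call lost without letter B (adjusted p = 0.0629 in edgeR). *Ptges2* fell by 0.77 with IFN-β and stood at -0.01 with LPS (edgeR adjusted p = 0.949).

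Of 7 tested entries among relatives of *Ltc4s* and genes that process leukotriene C4, LPS lowered 5 (35.4% of all tested genes were lower) and IFN-β lowered 2 (beside 23.3%). None was called higher, beside 32.8% (LPS) and 23.6% (IFN-β) of all tested genes. With the letter in the model IFN-β lowered 3, and by library size alone 6. *Ggt5*, which trims leukotriene C4 to D4, fell by 2.11 with LPS (edgeR adjusted p = 2.85e-04). Its IFN-β value of -0.87 (edgeR adjusted p = 0.0406) lost the call without unstimulated library A or C, LPS library B or any IFN-β library, with adjusted p values from 0.0527 to 0.178. With the letter in the model the *Ggt5* value for IFN-β was -0.84 (edgeR adjusted p = 0.00144). The glutathione transferases *Mgst2* and *Mgst3* fell by 0.99 and 0.71 with LPS. For IFN-β the *Mgst2* value was -0.42 (edgeR adjusted p = 0.131), and -0.40 (edgeR adjusted p = 0.00228) with the letter in the model.

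For inactivation and transport, 9 genes were tested. LPS gave 3 higher and 4 lower (beside 32.8% and 35.4% of all tested genes). IFN-β gave 1 higher and 4 lower (beside 23.6% and 23.3%). With the letter in the model these became 5 higher and 4 lower for LPS, and 1 higher and 7 lower for IFN-β. In that model 73.5% and 56.3% of all genes were called. *Cyp4f16*, of the family that hydroxylates leukotriene B4, fell by 1.56 and 0.64, and *Ptgr2*, a prostaglandin reductase, fell from 30.9 ± 1.8 to 15.5 ± 1.3 CPM with LPS (edgeR adjusted p = 3.20e-06). For IFN-β, *Ptgr2* was at -0.21 (edgeR adjusted p = 0.0770), and passed the test with the letter in the model (edgeR adjusted p = 0.0120). The leukotriene C4 exporter *Abcc1* had log2 fold changes of 0.56 for LPS (edgeR adjusted p = 0.0265) and -0.69 for IFN-β (edgeR adjusted p = 0.0151). With the letter in the model the adjusted p values in edgeR were 8.44e-07 and 2.74e-07. In the model without the letter, the LPS call of *Abcc1* was lost without unstimulated library A or B or LPS library B or C (edgeR adjusted p from 0.0615 to 0.111). Its IFN-β call was lost there without unstimulated library C (edgeR adjusted p = 0.0564) or IFN-β library A (0.0549). Scaling by library size alone turned the LPS value to -0.02. Under that scaling the LPS split of this list became 0 higher and 5 lower.

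Receptors for these lipids gave 2 higher and 5 lower for LPS and 4 higher and 3 lower for IFN-β among 10 tested. Of all tested genes, 32.8% were higher and 35.4% lower for LPS, and 23.6% and 23.3% for IFN-β. *Ltb4r1*, the high-affinity leukotriene B4 receptor, fell from 31.8 ± 3.4 CPM to 6.05 ± 1.25 with LPS and 18.1 ± 1.8 with IFN-β (log2 fold changes -2.39 and -0.82, edgeR adjusted p = 1.32e-07 and 5.78e-04). *Cysltr2*, a cysteinyl leukotriene receptor, rose from 2.79 ± 0.37 to 8.63 ± 2.07 and 7.51 ± 2.07 CPM (1.63 and 1.43 on the log2 scale). *Fpr2*, whose ligands include lipoxin A4, rose by 2.41 with LPS and 1.16 with IFN-β. The prostaglandin E2 receptor gene *Ptger2* fell by 1.14 with IFN-β (edgeR adjusted p = 1.40e-05), and its LPS value was -0.13 (edgeR adjusted p = 0.282).

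**Figure D5:**
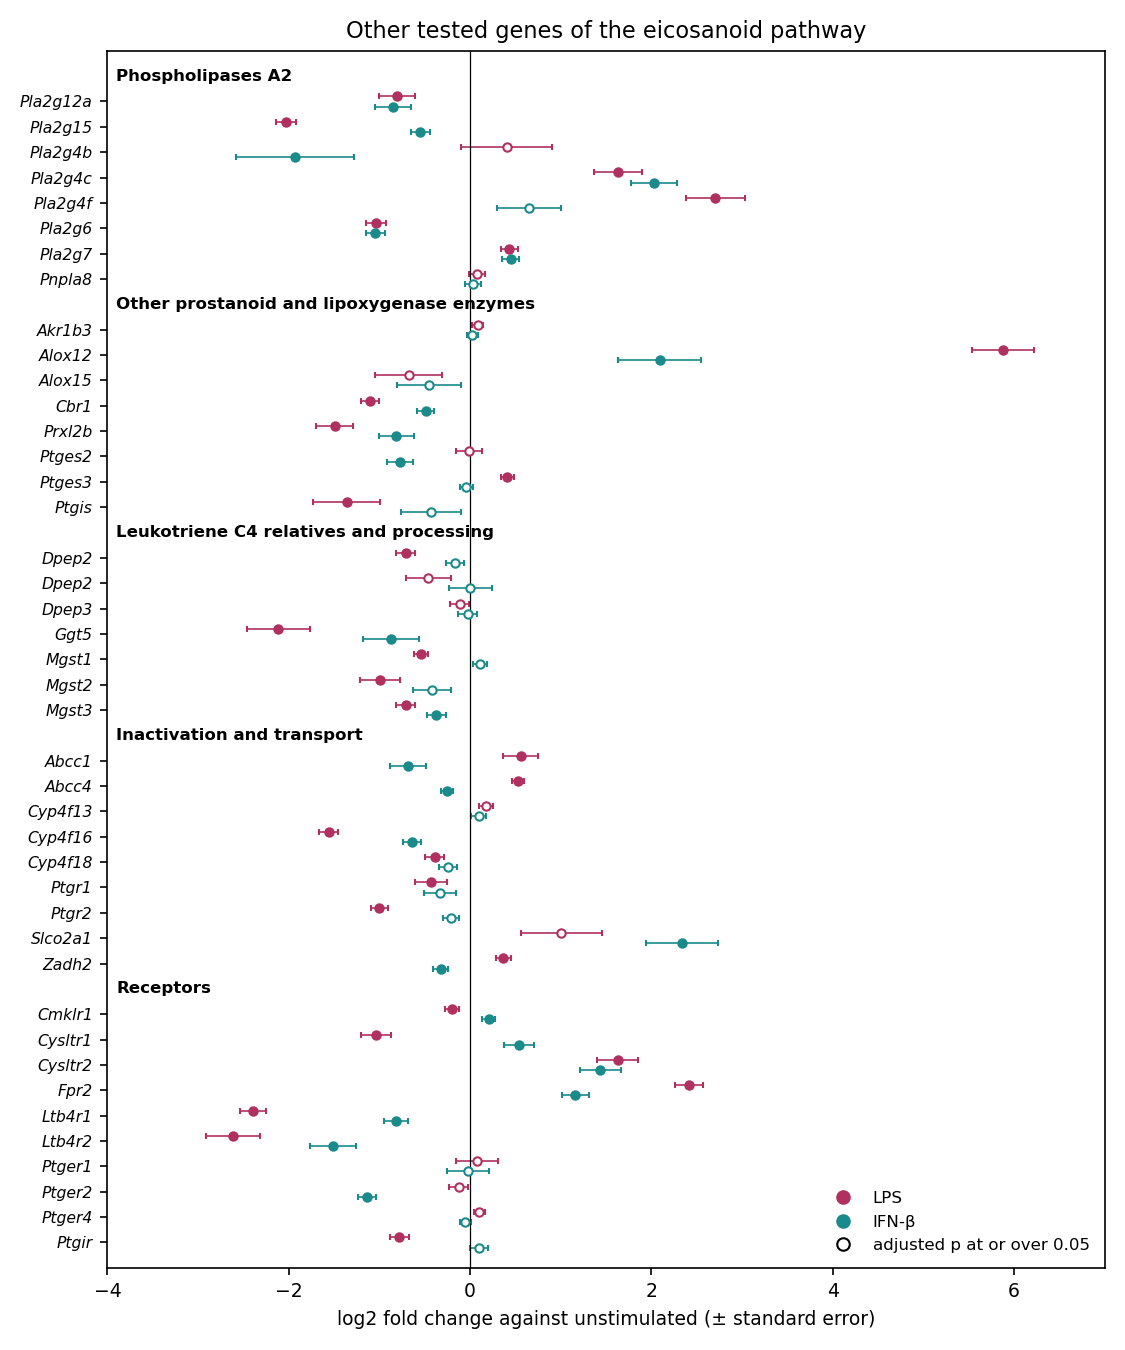
Log2 fold change against unstimulated with its standard error for the 42 tested entries of the 5 wider lists under LPS and IFN-β, where open symbols have an edgeR adjusted p of 0.05 or more. *Alox12* lies farthest to the right, at a fitted value of 5.88 for LPS that rests on 9 unstimulated counts, and no leukotriene C4 relative or processing gene has a filled symbol above 0.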

How the data were processed

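RNA was sequenced from 9 bone marrow-derived DC libraries, 3 each unstimulated, with LPS and with IFN-β. Per the labels and the paper's methods, the authors removed ribosomal RNA, trimmed adapters with Trim Galore 0.6.0, mapped reads to the mouse genome with STAR (2.7.8a in the submitters' processing notes, while the paper names another version) and counted them per gene on GENCODE M20. The authors deposited raw counts, without normalization or a filter on low counts, and the strand setting is not given in the sources used here.

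The deposited counts were tested with edgeR 4.0.16 (limma 3.58.1, R 4.3.3): filterByExpr, TMM factors and quasi-likelihood F-tests with 1 term per group over all 9 libraries. The p-values were adjusted by the Benjamini-Hochberg method over 16260 genes, with a threshold of 0.05, and the model was tested on simulated data. The simulation changed only a small part of the genes and held no letter effect, so it does not test the scaling or the pairing in these data. The standard error is the absolute log2 fold change divided by the square root of F. Exact permutation tests used scipy 1.17.1. Log2 values of single libraries used a pseudocount of 0.5 CPM. A count of 3 was taken as the floor, which was 0.0673 to 0.106 CPM, and which reflects counting alone, since the reads carry no molecular identifiers and copies of a molecule may be counted more than once.

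The library letters come from the sample titles. Same-letter libraries of different groups deviated together from their group means in all 9 pairs (r from 0.134 to 0.546, over the limit of 0.1), so the letters were taken as pairing the libraries, and a fit with the letter as a block was run beside the main one. Replicate libraries differed by more than sampling noise, and each counted as 1 replicate. Exon lengths join all annotated exons of a gene, and lengths and coordinates are those of GENCODE M21 on GRCm38, the release used here.

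The members, the wider lists and the tests were chosen with earlier results of these data known. Named genes of a wider list averaged at least 1 CPM and were at most the 3 largest called changes per comparison. Dpep2 has 2 entries. Alternatives were DESeq2 1.42.0, no filter on low counts, upper-quartile factors, library size without factors, at least 10 counts in every library, the 2 compared groups alone, the block, each library left out in turn and, added after seeing the data, all libraries of a letter left out.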

Additional observations from a re-analysis of the deposited data

How the results depend on the processing

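Of 30 results (10 genes in 3 comparisons), 19 kept their direction and their side of the threshold under all 19 alternatives. Of the 570 values under alternatives, 532 kept both, 11 lost a call, 19 gained one and 8 reversed. The letters pair the libraries, and the replicate block changed the call of *Ltc4s* for LPS, *Tbxas1* and *Alox5ap* for IFN-β and *Hpgds* for LPS and for IFN-β against LPS, each given above. It changed no other call among the 10 genes. The reversed values were uncalled in both settings. *Hpgds* for IFN-β (-0.03) was at 0.032 with the block and 0.13 without letter A, and between -1.13 and 1.23 when single libraries were left out. *Ltc4s* for IFN-β against LPS (-0.10) was at 0.18 with library size only and 0.055 without letter A, and between -0.21 and 0.093 without single libraries. *Hpgds* for LPS was called with no filter on low counts (edgeR adjusted p = 0.00741). Leaving out letter B, chosen after seeing the data, reduced the genes called from 7631 to 5051 for IFN-β and from 7989 to 5096 for IFN-β against LPS, with 2 libraries per group. Without single libraries the members called ranged from 8 to 9 for LPS and from 6 to 7 for IFN-β, and stayed at 8 for IFN-β against LPS. All genes called ranged from 10455 to 11234, 6467 to 7742 and 6858 to 8049. The difference in the log2 ratio of *Ptgs2* to *Ptgs1* ranged from 13.46 to 14.01, 2.68 to 3.30 and -11.05 to -10.45. At 3 libraries a group, exact tests of single values cannot reach 0.05, and *Hpgds* in LPS library C rests on 20 counts.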
